A study of Homo sapiens with 19 samples.

Results

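The leukocyte beta-2 integrins are cell surface receptors made of 1 shared beta chain, encoded by ITGB2 (CD18), and 1 of 4 alpha chains, encoded by ITGAL (CD11a), ITGAM (CD11b), ITGAX (CD11c) and ITGAD (CD11d). These 5 genes were taken by name from the 20033 protein-coding genes of GENCODE release 44 on hg38. All peaks within 10 kb of their transcription start sites (TSS) and over their gene records were collected, and the neighbouring genes ITGAM, ITGAX and ITGAD were also read as 1 locus on chromosome 16.

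CUT&RUN, in which a nuclease tethered by an antibody cuts out the chromatin that carries a mark, was applied to MOLM-13, an established human acute myeloid leukaemia line. For each of the marks H3K27ac, H3K4me2 and H3K4me3 there were 2 libraries of cells given Corin at 0.1 µM for 24 h and 2 libraries of cells given the vehicle DMSO for the same time. All 12 come from 1 cell line, and the labels do not say whether libraries of a group were separate cultures. The other 7 of the 19 libraries (2 IgG controls, 1 for LSD1 itself and 4 from cells that also received ATRA) were not analysed here. No level was therefore set against a control antibody.

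Beta-2 integrins carry leukocytes across vessel walls and mediate phagocytosis. The ITGAL product pairs with CD18 to form LFA-1, present on most leukocytes, and the ITGAM product forms Mac-1, a complement receptor that appears on the cell surface as myeloid cells mature. H3K27ac marks active promoters and enhancers, H3K4me2 marks both and is a substrate of the demethylase LSD1, and H3K4me3 lies mainly at promoters in use. Corin inhibits the CoREST complex through its demethylase, LSD1, and its histone deacetylases, and the comparison with DMSO asks where these marks lie after that block.

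The deposited lists held 30029 to 34424 H3K27ac peaks after Corin and 17599 to 19995 with DMSO. They held 40042 to 41152 against 30896 to 32299 for H3K4me2, and 11757 to 11883 against 11104 to 11343 for H3K4me3. Across the genome the bp under peaks was 1.96, 1.28 and 1.06 times as high after Corin for the 3 marks in that order. What set the longer lists was not tested, so values are also given at equal peak number, with each list reduced to as many of its best-scoring peaks as the shortest list of its mark held. An H3K4me3 peak lay within 1 kb of the TSS in all 4 libraries for 4 of 7 myeloid markers (SPI1, CEBPA, CD33 and LYZ), for 0 of 5 T cell, 0 of 4 B cell and 0 of 3 erythroid markers, and for 1 of 3 NK cell markers (NCAM1). MPO had none in any library, and CSF1R and CD14 each had 1 in 1 Corin library.

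H3K4me2 peaks lay around the start of ITGAM in both Corin libraries, where neither DMSO library had one, and covered more bp at ITGAX and ITGB2 in both Corin libraries than in either DMSO library. H3K27ac covered more bp upstream of ITGAL and in its gene body. H3K4me3 lay only at ITGAL and ITGB2 and its Corin and DMSO values overlapped there. ITGAD had no peak of any mark within 10 kb of its TSS. The plot of coverage by library shows all 60 values behind these statements.

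**Figure D1:**
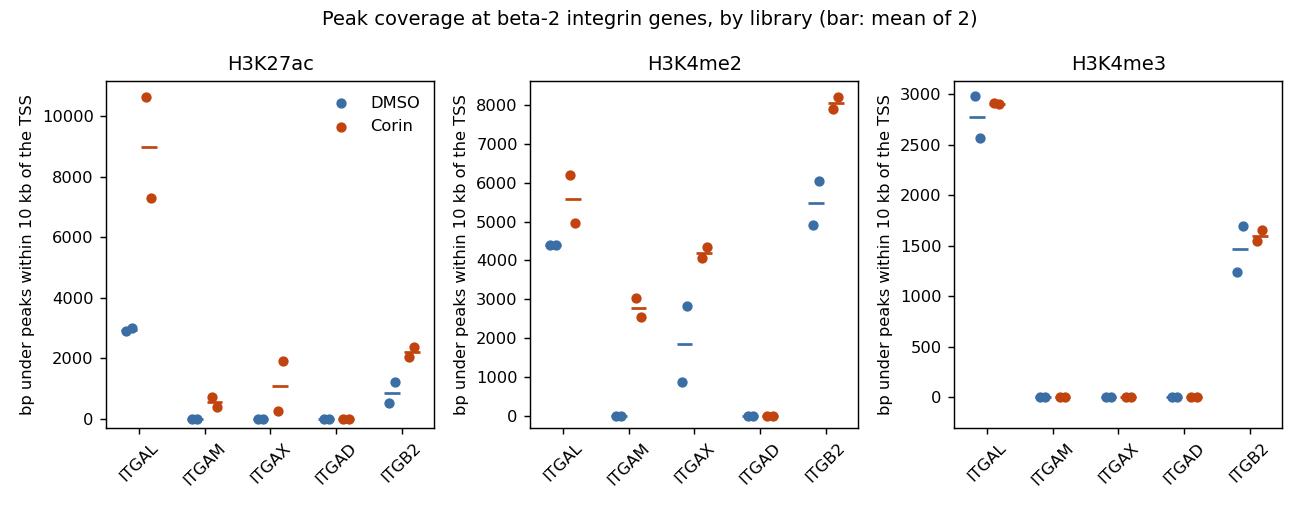
bp under peaks within 10 kb either side of the TSS of each beta-2 integrin gene, with 1 point per library, a bar at the mean of the 2 libraries of a group, and 1 panel per mark. Both Corin points lie above both DMSO points at ITGAL, ITGAM, ITGAX and ITGB2 for H3K27ac and H3K4me2, and at no member for H3K4me3.

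Each TSS window measures the same 20 kb, so levels can be set side by side. For H3K4me2 after Corin the order was ITGB2, with a mean of 8044 bp, ITGAL with 5579.5, ITGAX with 4205, ITGAM with 2787.5 and ITGAD with 0 bp. The libraries of no 2 neighbours in that order overlapped, and the same order held with DMSO, where ITGAM and ITGAD both stood at 0. For H3K27ac ITGAL led in both groups and ITGB2 followed, while the Corin values of ITGAM (706 and 378 bp) lay inside those of ITGAX (266 and 1905 bp). For H3K4me3 ITGAL lay above ITGB2 in every library.

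The Corin libraries both lay above the DMSO libraries at 4 of 5 members for H3K27ac, read against 61.3% of 8845 genes in the fit, and at 4 of 5 for H3K4me2, read against 40.6% of 13652 genes. They did so at 0 of 5 members for H3K4me3, where the share over 10842 genes was 26.5%. No member was lower in both Corin libraries, which was the case for 0.599%, 4% and 8.64% of genes in the same order (53, 546 and 937 genes, the first 2 of which were 228 and 1007 at equal peak number). Of the 5 members 4 entered the H3K27ac and H3K4me2 fits and 2 the H3K4me3 fit. ITGAM in both of the first marks and ITGAX in H3K27ac entered only through their Corin libraries, so their counts add nothing. At equal peak number the separation remained at ITGAL alone for H3K27ac (42.1% of genes) and at all of ITGAL, ITGAM, ITGAX and ITGB2 for H3K4me2 (32.5% of genes).

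Changes were tested with limma on log2(bp + 500), where the added 500 bp keep genes without peaks on the scale and shrink their differences. With 2 libraries a group, limma's adjusted p (Benjamini-Hochberg over all genes of a mark) was under 0.05 for 0 members and for 0 of all genes, which is 0% for H3K27ac, 0% for H3K4me2 and 0% for H3K4me3. Unadjusted p-values under 0.05 were given by limma for 2253, 1942 and 743 genes. Adding the replicate number as a block gave calls for 4.75% of genes for H3K27ac, 5.46% for H3K4me2 and 0% for H3K4me3. Windows of 25 kb gave calls for 924 of 10632 genes for H3K27ac, 241 of 14845 for H3K4me2 and 0 of 12031 for H3K4me3. Both kinds of call are printed below where a member is among them. Blocked p-values rest in large part on variance that limma pools over genes, and a gene's SE could be larger with the block.

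**Figure D2:**
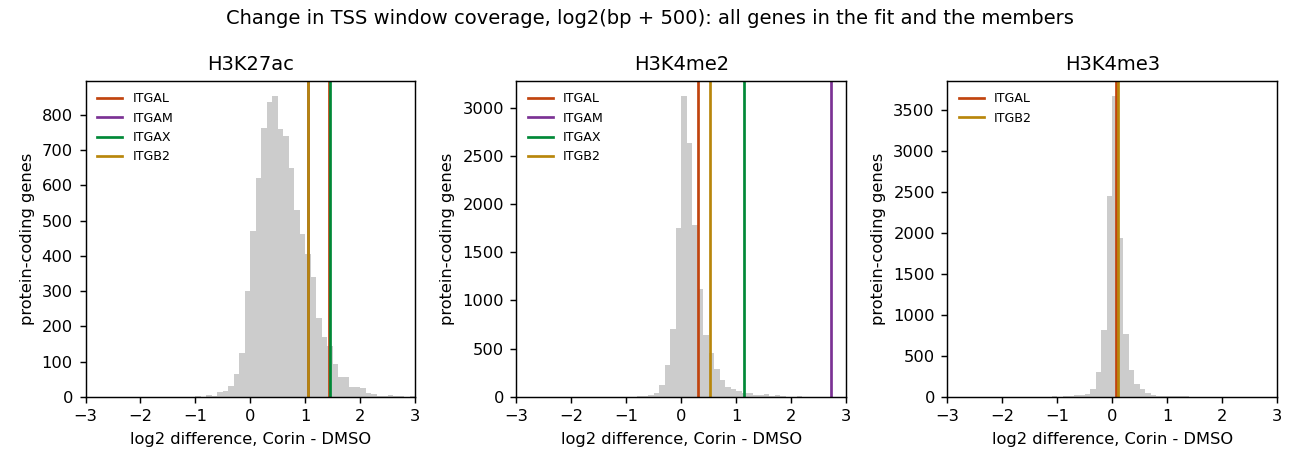
Histograms of the log2 difference in TSS window coverage, Corin minus DMSO, over all protein-coding genes in the fit of each mark (genes per bin of 0.1), with vertical lines at the beta-2 integrin genes in that fit. In H3K4me2 the ITGAM line stands at 2.71 and ITGAX at 1.14 against a median of 0.12, and in H3K4me3 ITGAL and ITGB2 stand near the centre.

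ITGAL, on the plus strand of chromosome 16 from 30472658 to 30523567, encodes the alpha chain of LFA-1. Its H3K27ac window coverage was 10624 and 7300 bp in the Corin libraries and 2893 and 2982 bp in the DMSO libraries. Both Corin values were high and lay apart from each other, while the DMSO values nearly coincided. The difference was 1.44 on the log2(bp + 500) scale (SE 0.24, n = 2 per group, limma adjusted p = 0.0875), and the limma adjusted p was 0.0280 with the replicate block and 0.0306 with windows of 25 kb. It exceeded that of 95.5% of genes, whose median was 0.54. At equal peak number the values were 9083 and 5293 bp against 2893 and 2401 bp. The log2 difference there was 1.25 (SE 0.29, limma adjusted p = 0.355) beside a median of 0.32. With a score of at least 100 the limma adjusted p was 0.129, and with windows of 5 kb it was 0.144.

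ITGAL acetylation was compared in stretches around the gene start. Within 1 kb of the TSS, 1528 and 1156 bp were covered after Corin and 936 and 1030 bp with DMSO, 1.36-fold between means. From 10 to 1 kb upstream the values were 6073 and 3796 bp against 1291 and 458 bp, 5.64-fold. In the gene body past 10 kb they were 5542 and 2660 bp against 267 and 360 bp, 13.1-fold. These ratios cannot be ranked, because the stretches differ in length and in their coverage with DMSO. That coverage was a mean of 983 of 2001 bp at the promoter, 874.5 of 9000 bp upstream and 313.5 of 40825 bp past 10 kb. The groups did not overlap in any of these stretches, and no test was run on them. Over the whole gene body the values were 9650 and 6093 bp against 1869 and 2884 bp, 3.31-fold, and at equal peak number 4732 and 3193 bp against 1869 and 2303 bp, 1.9-fold.

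The widest H3K27ac region at ITGAL, chr16:30463902-30468018, lay in the intergenic stretch 4.7 kb upstream and was present in all 4 libraries. Peaks covered 3629 and 3197 bp of it after Corin and 915 and 458 bp with DMSO. It held no H3K4me2 or H3K4me3 peak in any library. Of 25 H3K27ac regions at ITGAL, 25 had a peak in a Corin library and 7 in a DMSO library, and 14 were seen in 1 library alone. The Corin lists held more H3K27ac peaks throughout, and no share over all regions stands beside these counts. They are therefore no result about ITGAL.

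A region is called gained where a peak was present in both Corin libraries and absent from both DMSO libraries, and lost in the opposite case. At the 5 members 5 of 41 H3K27ac regions were gained, beside 11.5% of all 41587 regions of that mark, and 0 were lost (0.18% of all). Of the gained regions 4 lay in ITGAL. They were chr16:30485344-30486350 in an intron 12.6 kb from the TSS, chr16:30487725-30488135 in an intron 15 kb from it, chr16:30488914-30489847 over exons 10 and 11, and chr16:30504784-30505622 over exons 19 and 20. The first covered 992 and 534 bp in the Corin libraries and was the gained H3K27ac region of a member that remained at equal peak number. Where a library had to cover at least 50% of a region, the first pair stayed gained, the regions over exons did not, and the wide upstream region counted as gained. None of the 4 held an H3K4me2 or H3K4me3 peak in any library. The region over exons 10 and 11 also holds the start of the long non-coding RNA gene ENSG00000261346.

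The stretch of 300 bases centred on the part of the first gained region that both Corin libraries covered, chr16:30485926-30486225 on hg38 (plus strand), is shown because it carries the acetylation gain that remained at equal peak number. Capitals mark matches, on either strand, to the letters GAGGAA (the core bound by PU.1, the ETS factor of myeloid cells), TTNNGNAA (C/EBP factors, in which N is any base), GGGCGG (SP1 and KLF factors), TGTGGT (RUNX factors) and TGANTCA (AP-1), and to the retinoic acid receptor element DR5, 2 AGGTCA letters with a spacer of 5 bases.
ITGAL intron: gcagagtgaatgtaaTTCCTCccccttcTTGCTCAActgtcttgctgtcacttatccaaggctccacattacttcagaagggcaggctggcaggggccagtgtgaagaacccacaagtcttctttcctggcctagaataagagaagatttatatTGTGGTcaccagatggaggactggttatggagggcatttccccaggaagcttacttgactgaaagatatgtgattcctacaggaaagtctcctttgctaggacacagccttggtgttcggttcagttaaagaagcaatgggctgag
It held 1 match each to the PU.1, C/EBP and RUNX letters, which do not overlap. Such matches are frequent: of the central 300 bases of all H3K27ac regions, 29.6% held the PU.1 core, 44.1% the C/EBP letters and 20% the RUNX letters.

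H3K4me2 at ITGAL covered 6197 and 4962 bp after Corin and 4405 and 4394 bp with DMSO. The groups did not overlap, and the log2 difference was 0.30 (SE 0.12, n = 2 per group, limma adjusted p = 0.352). It was 0.16 without the first Corin library, 0.45 without the second and 0.16 at equal peak number, where the gene body difference was -80.5 bp. Its widest region, chr16:30471820-30476545, spanned exons 1 to 4 in all 4 libraries. A gained H3K4me2 region, chr16:30476627-30477297, lay in the intron beyond it, 3.9 kb from the TSS, with 671 and 208 bp covered, and was not gained under the 50% rule. Past 10 kb the gene body held no H3K4me2 peak in any library, the stretch in which acetylation was gained.

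H3K4me3 at ITGAL covered 2907 and 2903 bp after Corin and 2980 and 2561 bp with DMSO. The Corin values lay between the DMSO values, and the log2 difference was 0.061 (SE 0.084, n = 2 per group, limma adjusted p = 0.944). It was 0.13 with a score of at least 100 and 0.30 with windows of 25 kb (limma adjusted p = 0.905 and 0.484). All of it lay in 1 region over exons 1 to 4, chr16:30472475-30475671.

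**Figure D3:**
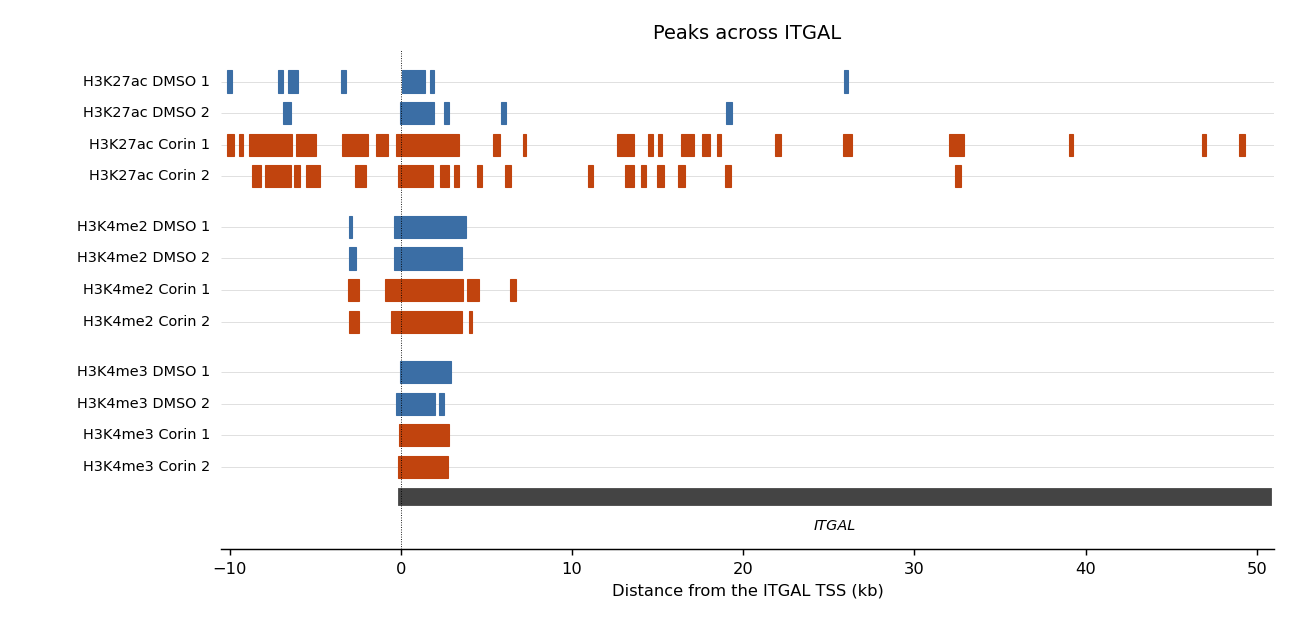
Peaks of the 12 libraries across ITGAL, with distance from the TSS in kb on the horizontal axis, 1 row per library, Corin in orange, DMSO in blue and the gene record as a grey bar. H3K27ac peaks of the Corin libraries continue past 10 kb into the gene body, where the DMSO libraries have 1 peak each and neither H3K4me2 nor H3K4me3 has any.

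ITGAM, on the plus strand of chromosome 16 from 31259967 to 31332892, encodes the alpha chain of Mac-1. Its H3K4me2 window coverage was 3039 and 2536 bp in the Corin libraries, and no peak lay in the window in either DMSO library. No fold can be given against a group without a peak. On the log2(bp + 500) scale the difference was 2.71 (SE 0.21, n = 2 per group, limma adjusted p = 0.0543), a value that depends on the added 500 bp and is no bound. ITGAM was in the fit only through its Corin libraries, so its p-values describe a presence against an absence and are no further support. The limma adjusted p was 7.40e-06 with the replicate block, 0.0308 with windows of 25 kb and 0.0437 with 1000 bp added. It was 0.224 at equal peak number, 0.166 with a score of at least 100 and 0.114 with windows of 5 kb. With the block the SE was larger, at 0.27, so that smaller p did not come from closer pairs. Coverage at equal peak number was 2124 and 1459 bp after Corin and 0 bp with DMSO.

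Of the 7 H3K4me2 regions at ITGAM 3 were gained, out of 4 gained among 21 at the members, beside 9.64% of 42429 over the genome. None was lost (0.158% over the genome). The region chr16:31259741-31261199 spanned the TSS, exon 1 and the start of the first intron, with 1249 and 1459 bp covered. The region chr16:31253564-31254438 lay 5.5 kb upstream between genes, with 875 and 722 bp covered. A smaller region lay in an intron 3.1 kb downstream, with 406 and 355 bp covered. Of these, the region at the TSS was still gained at equal peak number, and all 3 were under the 50% rule. A further region, chr16:31264960-31265468 over exon 3, covered 509 bp in the first Corin library alone.

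Further into the gene, ITGAM carried H3K4me2 with and without Corin. The intronic region chr16:31301590-31302895, 41.6 kb from the TSS, was covered over 1284 and 789 bp after Corin and 592 and 673 bp with DMSO. Its neighbour 39.4 kb from the TSS was covered over 748 bp in 1 Corin library and over 289 and 197 bp in the DMSO libraries. Past 10 kb from the TSS the totals, 2032 and 789 bp against 881 and 1171 bp, overlapped between the groups.

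The 250 bases upstream of the ITGAM TSS, chr16:31259725-31259974 (plus strand, RefSeq, GRCh38.p14), and 300 bases from the centre of what both Corin libraries shared in the upstream region, chr16:31253909-31254208 (hg38, plus strand), are shown because the gained H3K4me2 lay over them. The promoter of ITGAM was the 1 member promoter matched by symbol in the RefSeq table, and capitals mark the same letters as above.
ITGAM promoter: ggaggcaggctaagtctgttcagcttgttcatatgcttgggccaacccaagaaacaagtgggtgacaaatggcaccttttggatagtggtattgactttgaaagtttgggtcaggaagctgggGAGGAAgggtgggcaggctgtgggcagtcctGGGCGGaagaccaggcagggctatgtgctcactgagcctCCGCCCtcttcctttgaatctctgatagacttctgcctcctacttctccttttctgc
ITGAM upstream region: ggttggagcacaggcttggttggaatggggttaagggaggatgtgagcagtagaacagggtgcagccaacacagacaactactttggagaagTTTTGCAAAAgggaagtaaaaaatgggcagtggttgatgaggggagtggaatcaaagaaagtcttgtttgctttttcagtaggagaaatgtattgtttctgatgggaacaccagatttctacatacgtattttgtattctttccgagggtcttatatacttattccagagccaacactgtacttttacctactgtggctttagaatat
The promoter held the PU.1 core at -127 from the TSS and the SP1/KLF letters at -96 and, on the other strand, at -57. Of 35116 RefSeq promoters of this length 23.6% held the PU.1 core and 42.6% the SP1/KLF letters. The C/EBP, RUNX, AP-1 and DR5 letters, held by 33.2%, 11%, 6.57% and 0.00285% of promoters, were not in this window. The upstream region held 2 overlapping C/EBP matches, 1 per strand. Of the central 300 bases of all H3K4me2 regions 48.6% held the C/EBP letters.

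H3K27ac within 10 kb of the ITGAM TSS covered 706 and 378 bp in the Corin libraries, and neither DMSO library had a peak there. The 2 values came from different places, 5.8 kb upstream in the first Corin library and 0.1 kb upstream in the second. No H3K27ac region at ITGAM was therefore gained by the definition above, and the limma adjusted p for the window was 0.179 (log2 difference 1.04, SE 0.41, n = 2 per group). The coverage left at equal peak number was 0 and 378 bp. No H3K4me3 peak lay within 10 kb of the ITGAM TSS or over its gene body in any of the 4 libraries.

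ITGAX, on the plus strand of chromosome 16 from 31355134 to 31382999, encodes the alpha chain CD11c, a common marker of dendritic cells and macrophages. Its H3K4me2 window coverage was 4062 and 4348 bp after Corin and 865 and 2840 bp with DMSO. The Corin libraries were close, the DMSO libraries lay far apart, and the groups did not overlap. The log2 difference was 1.14 (SE 0.40, n = 2 per group, limma adjusted p = 0.284), larger than in 98.7% of genes, and with the replicate block the limma adjusted p was 0.00231. The values at equal peak number were 3106 and 4348 bp against 865 and 2840 bp. Without the first DMSO library the log2 difference was 0.49, and without the second it was 1.78.

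At ITGAX the methylation was present in both groups and covered more bp after Corin. The widest region, chr16:31354194-31357440 over exons 1 to 5, had its promoter peak 2052 and 3069 bp wide after Corin and 650 and 1751 bp wide with DMSO. From 1 to 10 kb downstream 1025 and 1283 bp were covered after Corin and 0 and 183 bp with DMSO. A region 2.3 kb upstream, chr16:31351788-31352869, was covered over 1054 and 1082 bp against 215 and 906 bp. It overlaps the start of the long non-coding RNA gene ENSG00000289930 on the opposite strand, and the marks do not tell the strands apart.

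H3K27ac within 10 kb of the ITGAX TSS covered 266 and 1905 bp after Corin, and neither DMSO library had a peak. The Corin libraries differed widely, and the limma adjusted p was 0.189 (log2 difference 1.44, SE 0.59, n = 2 per group). It was 0.0306 with windows of 25 kb (log2 difference 2.12), in a gene that entered the main fit only through its Corin libraries. At equal peak number the window held 0 and 1170 bp after Corin, the log2 difference was 0.87 and the limma adjusted p 0.696. Without the first Corin library the log2 difference was 2.27. The gained H3K27ac region chr16:31364911-31365271 lay in an intron 9.7 kb from the TSS, with 280 and 223 bp covered, and H3K4me2 covered part of it in 3 of 4 libraries. Over the gene body H3K27ac measured 1697 and 1896 bp after Corin and 0 and 296 bp with DMSO, and at equal peak number 268 and 223 bp against 0 bp. H3K4me3 had no peak at ITGAX in any library.

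ITGAD, on the plus strand of chromosome 16 from 31393335 to 31426505, encodes CD11d, the alpha chain of tissue macrophages. It held 1 peak in all 12 lists, an H3K4me2 peak of 246 bp in 1 Corin library, in an intron 10.8 kb from the TSS. That peak was not among those kept at equal peak number. ITGAD entered no fit, and neither treatment group had a peak at its start.

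Read as 1 locus, the stretch from 10 kb before ITGAM to 10 kb after ITGAD measured 186539 bp and carried H3K27ac peaks over 3614 and 3316 bp after Corin and 202 and 296 bp with DMSO. The groups did not overlap, and the ratio of means was 13.9-fold beside 1.96-fold for the genome. Each DMSO library held 1 H3K27ac peak in the locus, at different places, so this ratio rests on very little coverage with DMSO. H3K4me2 covered 10680 and 8994 bp against 2523 and 4638 bp, 2.75-fold beside 1.28-fold for the genome. No H3K4me3 peak lay in the locus. The exact two-sided permutation test gave p = 0.33 for each of the first 2 marks, the smallest that 2 libraries against 2 allow.

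At equal peak number H3K27ac in the locus covered 489 and 1643 bp against 202 and 0 bp, and H3K4me2 8385 and 7383 bp against 2523 and 4638 bp. With all peaks the mean log2(bp + 500) difference over the 3 marks was 1.26, with an exact permutation p = 0.0556, the smallest possible here because H3K4me3 was 0 throughout. Permuted within replicate pairs the exact p was 0.125, again the smallest possible, and the mean difference at equal peak number was 0.79. Both permutations treat the marks as independent. The labels do not say whether marks of 1 replicate number shared a culture, so both p-values may be too small. ITGAL lies 736399 bp before ITGAM with 38 protein-coding genes between them. Over the whole stretch from ITGAL to ITGAD the ratios were 2.60, 1.29 and 1.08 for H3K27ac, H3K4me2 and H3K4me3, beside 1.96, 1.28 and 1.06 for the genome.

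**Figure D4:**
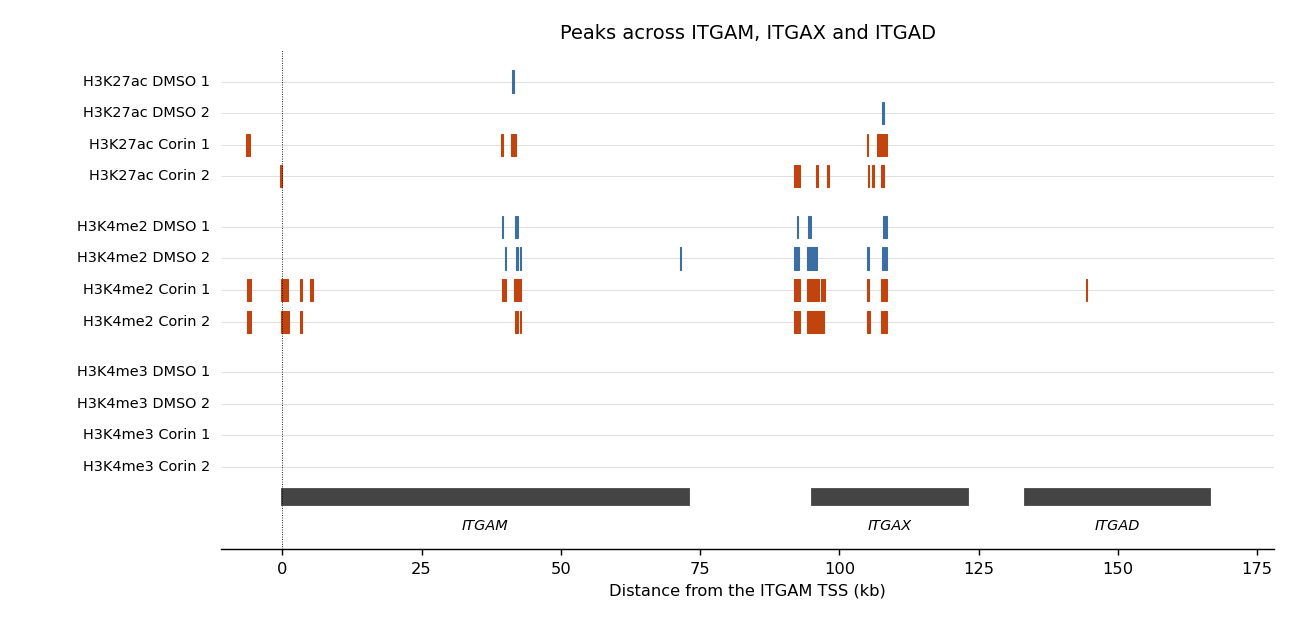
Peaks of the 12 libraries across ITGAM, ITGAX and ITGAD, with distance from the ITGAM TSS in kb on the horizontal axis, 1 row per library, Corin in orange, DMSO in blue and gene records as grey bars. H3K4me2 peaks at and beside the ITGAM TSS occur in both Corin rows and in neither DMSO row, and the H3K4me3 rows are empty.

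ITGB2, on the minus strand of chromosome 21 from 44885953 to 44931989, encodes the beta chain that all 4 alpha chains need to reach the surface. Its H3K4me2 window coverage was 7885 and 8203 bp after Corin and 4920 and 6038 bp with DMSO. The groups did not overlap, and the log2 difference was 0.52 (SE 0.11, n = 2 per group, limma adjusted p = 0.145). With the replicate block the limma adjusted p was 0.00721. The values were the same at equal peak number. Measured from the 5′ end of the gene record instead, the log2 difference was 0.32.

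All 5 H3K4me2 regions at ITGB2 were present in all 4 libraries, and they differed between the groups in width. The region 3.9 kb upstream, chr21:44924772-44925981, was covered over 1072 and 1203 bp after Corin and 286 and 280 bp with DMSO, and counted as gained under the 50% rule. The promoter region, chr21:44918749-44921655, was the widest, with 2738 and 2796 bp covered, against 1977 and 2364 bp. The region chr21:44930712-44933144 spans the 5′ end of the gene record, 11090 bp upstream of the canonical TSS, with 2322 and 2346 bp against 2057 and 2077 bp. The last of these held no H3K4me3 peak in any library.

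H3K4me3 at ITGB2 lay in 1 region at the canonical TSS, chr21:44919203-44920909. It covered 1545 and 1656 bp in the Corin libraries and 1243 and 1697 bp in the DMSO libraries. The groups overlapped, and the limma adjusted p was 0.934 (log2 difference 0.10, SE 0.13, n = 2 per group). The antisense gene ITGB2-AS1 starts 152 bp from this TSS on the other strand, and these marks cannot be assigned to either gene. At the members 2 of 2 H3K4me3 regions, at ITGAL and ITGB2, were in all 4 libraries. None was gained or lost, beside 1.49% and 0.289% of 12090 regions over the genome.

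H3K27ac at ITGB2 covered 2021 and 2367 bp after Corin and 508 and 1196 bp with DMSO. The log2 difference was 1.04 (SE 0.33, n = 2 per group, limma adjusted p = 0.140), above 83.9% of genes. It was 0.66 without the first DMSO library and 1.42 without the second. At equal peak number the values were 350 and 1042 bp against 508 and 940 bp, the groups overlapped and the difference was -0.074. The intronic region chr21:44913547-44914583, 6.3 kb from the TSS, was present in all 4 libraries, with 920 and 708 bp against 508 and 698 bp. Under the 50% rule the region chr21:44926858-44927789 counted as gained for H3K27ac. Within 1 kb of the TSS H3K27ac was found in 1 Corin library, over 690 bp.

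**Figure D5:**
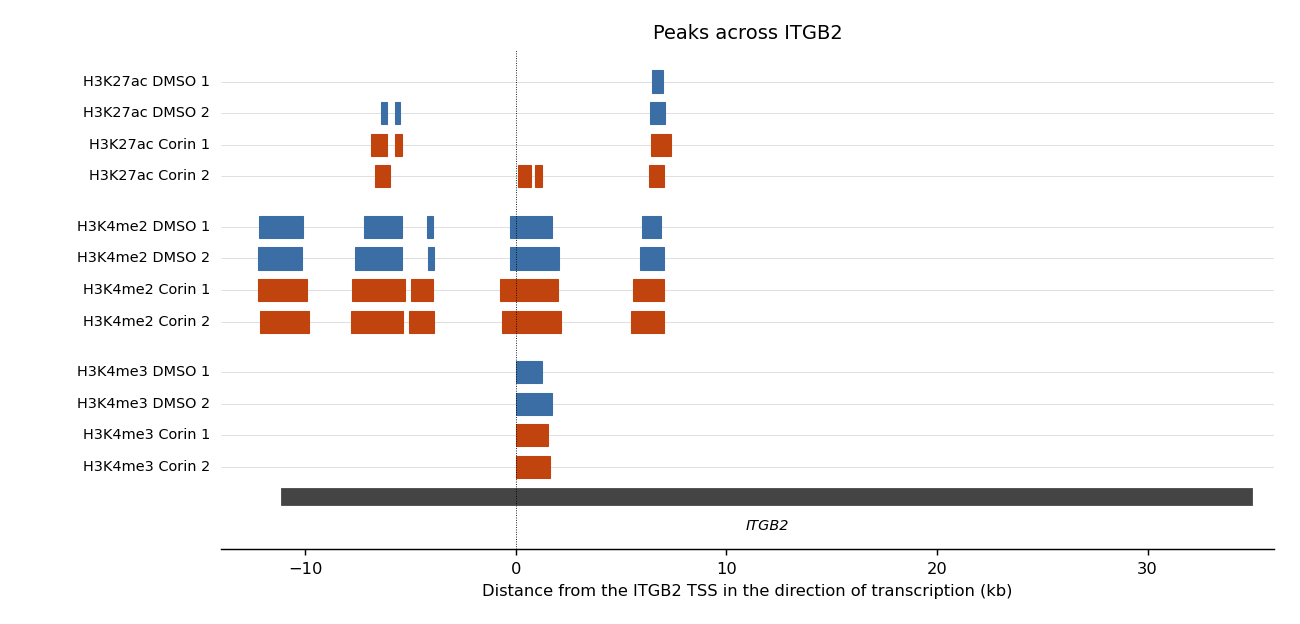
Peaks of the 12 libraries across ITGB2, with distance from the TSS in the direction of transcription in kb on the horizontal axis, 1 row per library, Corin in orange, DMSO in blue and the gene record as a grey bar. The 5 H3K4me2 regions occur in every H3K4me2 row, and H3K4me3 occurs at the TSS alone.

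In pooled cells, a peak carried by more cells and a stronger mark per cell cannot be told apart, and this holds for each value above. The genes whose TSS windows were most like a member over the 12 libraries, by the mean absolute difference in covered bp, were ANKRD28 (715.1 bp), UHRF2 (896.7 bp) and VAMP5 (897.7 bp) for ITGAL. For ITGAX they were SEPTIN9 (225.7 bp), SLC12A3 (274.8 bp) and PROC (291.6 bp). For ITGB2 they were PDXK (359.9 bp), METTL9 (463.5 bp) and FNBP1 (465.1 bp). ITGAM and ITGAD had coverage in fewer than 6 libraries and were left out of this search.

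The 3 lists of related genes were read beside the members, and no gene in them passed limma's adjusted threshold. Of 9 genes for beta-2 integrin ligands, 4 entered the H3K27ac fit, 3 of them higher in both Corin libraries (61.3% of all genes), with a median log2 difference of 1.04 beside 0.54 over all genes. ICAM2 and ICAM3, 2 of these 3, reached the filter on mean coverage only through Corin, so they had to be higher. For H3K4me2 it was 7 of 7 (40.6% of all genes) with a median of 0.31 beside 0.12, and for H3K4me3 5 of 6 (26.5% of all genes) with a median of 0.36 beside 0.04. ICAM1, a main ligand of LFA-1, had H3K4me3 over 1816 and 1937 bp after Corin and 225 and 248 bp with DMSO (limma adjusted p = 0.129), and entered that fit through Corin alone. Its log2 difference of 1.69 was 0.64 with windows of 25 kb. ICAM2, another LFA-1 ligand, had H3K4me2 over 5450 and 4650 bp against 1637 and 1737 bp, with a limma adjusted p of 0.0545 and, with the block, 3.10e-05. C3, whose fragment iC3b is bound by Mac-1, had H3K4me2 over 3064 and 2964 bp against 1042 and 1425 bp, with a blocked limma adjusted p of 0.00178. Its log2 difference of 1.03 was 0.39 from the 5′ end of the gene record, 0.36 with windows of 25 kb and 1.78 with windows of 5 kb. ICAM3 H3K27ac was 1565 and 1858 bp against 396 and 0 bp. The block called ICAM3 and ITGAE for H3K27ac (limma adjusted p = 0.0410 and 0.0310), which is no support for genes that entered through Corin alone. The windows of ICAM4 and ICAM5 overlap and hold the same H3K4me3 values in all 4 libraries and the same H3K4me2 values in 3 of 4, so the 5 of 6 and the 7 of 7 count the same peaks 2 times.

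Of 14 genes that regulate the switch of integrins to their active form, in either direction, or serve as adaptors, 13 entered the H3K27ac fit. Of these 11 were higher in both Corin libraries (61.3% of all genes) and 1 was lower (0.599%), with a median of 0.88 beside 0.54. With equal peak numbers that median was 0.45 beside 0.32 over all genes. APBB1IP and CYTH1 reached that filter only through Corin. For H3K4me2 it was 8 of 14 (40.6% of all genes) with a median of 0.16 beside 0.12 (0.10 beside 0.073 with equal peak numbers), and for H3K4me3 4 of 12 (26.5%) with a median of 0.12 beside 0.04. FERMT3, which encodes kindlin-3, an activator of beta chains, had H3K27ac over 2339 and 2359 bp against 801 and 283 bp, with a blocked limma adjusted p of 0.0410. Its H3K4me3 covered 593 and 712 bp after Corin, and neither DMSO library had a peak, so the filter fixed that direction. CYTH1, which encodes a regulator of LFA-1 adhesion, had H3K27ac over 1277 and 989 bp after Corin and none with DMSO. Its blocked limma adjusted p of 0.0468 is no support, since it entered the fit through Corin alone. RAP1A, a small GTPase upstream of integrin activation, had H3K27ac over 822 and 773 bp against 1157 and 854 bp (limma adjusted p = 0.659), and with a score of at least 100 the log2 difference turned to 1.38. The block also called TLN1 H3K27ac (0.0318, limma adjusted p) and RASSF5 H3K4me2 (0.0228, limma adjusted p), whose log2 difference of 0.62 was 0.36 with windows of 5 kb. TLN1, which encodes talin, was chosen after its values were seen.

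Of 9 other integrin chains of blood cells, 5 of 6 were higher in both Corin libraries for H3K27ac (61.3% of all genes) with a median of 0.81 beside 0.54, or 0.53 beside 0.32 with equal peak numbers. ITGB7, ITGAE and ITGAV, 3 of these 5, reached the filter only through Corin. The counts were 4 of 8 for H3K4me2 (40.6%) with a median of 0.20 beside 0.12 (0.093 beside 0.073 with equal peak numbers), and 1 of 4 for H3K4me3 (26.5%) with a median of 0.075 beside 0.044. ITGAE H3K27ac was 2693 and 1350 bp against 476 and 0 bp, and the log2 difference of 1.80 was 0.90 at equal peak number. ITGB7, the partner of ITGAE and ITGA4, had H3K4me2 over 4829 and 4397 bp against 2402 and 2939 bp, with a blocked limma adjusted p of 0.00821. Its log2 difference of 0.69 was 0.38 with windows of 5 kb and 0.43 with windows of 25 kb. ITGA4 H3K4me3 was 3077 and 3126 bp against 3586 and 3130 bp (limma adjusted p = 0.886), the 1 of 4 below both DMSO libraries (8.64% of all genes).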

How the data were processed

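Peak lists of 12 CUT&RUN libraries of MOLM-13 cells were used, 2 per mark and treatment. Per the submitters' processing notes Trim Galore, Bowtie2, Picard and MACS2 were used with the builds GRCh38 and hg38. Versions, the control, the calling threshold and the definition of the score are not given in the sources used here. The deposited score starts at 50 in every list, takes whole values, and served only to rank and filter peaks inside 1 list. There is 1 list per library. All coordinates fit hg38 (0 of 292523 peaks ran past the end of a chromosome). Per the labels each library has at least 5000000 paired reads of 150 bp; depth is otherwise unknown, so no interval or floor was computed. The labels give 0.1 µM for DMSO too, and its meaning there is unclear.

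For each protein-coding gene the bp under peaks within 10 kb of the start of its canonical transcript (GENCODE release 44) was summed per library. Each mark was fitted alone with limma 3.58.1 (R 4.3.3, with trend) on log2(bp + 500) over genes with a mean of at least 250 bp, with Benjamini-Hochberg adjustment; the fit was tested on simulated data. Each gene's variance is drawn by limma towards a trend over all genes, so a p-value does not rest on that gene's own libraries alone. Because nothing says that libraries are separate cultures, the spread behind the p-values is only between these libraries and may be technical. Peaks of a mark were merged into regions, and 1 bp of overlap sufficed for a library to count as having a region. Peak names number the libraries in separate series for the replicates, and the deviations of same-numbered Corin and DMSO libraries had correlations of 0.322 (H3K27ac), 0.298 (H3K4me2) and 0.236 (H3K4me3). Over the 3 marks the numbers were therefore taken as pairing the libraries, although each mark has only 2 pairs and what a number stands for is not in the labels.

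Alternatives were equal peak numbers, a score of at least 100, windows of 5 and 25 kb, the gene record's 5′ end as TSS, 100 or 1000 bp added, no filter, regions covered by at least 50%, the block, and leaving out each library. The genes named are the 5 members, the 3 genes most like a member, and of each list and mark those past the threshold or else 2 at either end of the log2 differences, of which examples are given. The members and lists were chosen with earlier results of these data known. Sequences come from RefSeq (GRCh38.p14) and hg38. The sequence of 1 gained region is not reported here.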

Additional observations from a re-analysis of the deposited data

How the results depend on the processing

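The count of genes called by limma was 0 in each mark with the main settings. It rose to 924 of 10632 genes for H3K27ac and 241 of 14845 for H3K4me2 with windows of 25 kb. With 1000 bp added it was 19 of 13652 for H3K4me2. With the replicate block, the pairing by number, it was 420 of 8845 for H3K27ac and 746 of 13652 for H3K4me2. The members among these calls are given in the report; of the listed genes named by the rule, the ones recomputed under each setting, windows of 25 kb called FERMT3 for H3K27ac and ICAM2 for H3K4me2, and also ICAM3, ITGB7 and ITGAE for H3K27ac, which entered the 10 kb fit through Corin alone. With 1000 bp added ICAM2 was called. Among the named genes the block changed no call beside those given in the report. At equal peak number 3289 genes were higher in both Corin libraries for H3K27ac, and 1 gained region of H3K27ac and 1 of H3K4me2 was left at the members. The sign of a log2 difference also turned there for ITGB2 H3K27ac (-0.074, and -28.0 bp over the gene body), F11R H3K27ac (-0.28), ITGB1 H3K27ac (-0.72) and ITGA4 H3K4me2 (-0.023). With a score of at least 100 it turned for RAP1A H3K27ac (1.38). Where a library had to cover at least 50% of a region, 5 regions were gained for each of H3K27ac and H3K4me2, the latter with chr16:31364980-31365434 at ITGAX. The share of all regions gained at equal peak number or under the 50% rule is not given here. The member counts under those settings therefore cannot be read against it. The cause of these changes was not tested.

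Leaving out 1 library at a time turned small log2 differences. The ranges were -0.031 to 0.15 for ITGAL H3K4me3, -0.065 to 0.27 for ITGB2 H3K4me3, -0.068 to 1.05 for RASGRP2 H3K27ac and -0.21 to 0.041 for ITGB1BP1 H3K4me2. They were -0.20 to 0.070 for RAP1A H3K4me3, -0.21 to 0.078 for APBB1IP H3K4me3, -0.10 to 0.013 for ITGAV H3K4me2, -0.0015 to 0.088 for ITGA2B H3K4me2 and -0.13 to 0.21 for ITGB1 H3K4me3. ITGAL H3K27ac kept 1.18 to 1.69 and ITGB2 H3K4me2 0.39 to 0.66. ITGAM H3K4me2 gave 2.60 to 2.82, but with 0 bp in both DMSO libraries, leaving out 1 of them could not move it. The value was 1.92 with 1000 bp added and 4.85 with 100 bp added. A lone library left in a group was assumed to vary like the others. Without read counts, a stretch without a peak cannot be told from one under the calling threshold.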
